A study of Homo sapiens with 6 samples.

Results

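The genes described here encode 39 proteins of the spliceosome, the machine that removes introns from pre-mRNA. They make up the U4/U6.U5 tri-snRNP, which enters the spliceosome as a preassembled particle, and the PRPF19 complex (NTC) with its partner proteins, which joins as the spliceosome is activated. They were picked by gene symbol from a fixed list, with no measured value in the rule, and are 39 of the 60607 genes and 311 of the 234326 transcripts quantified. The RNA came from PLC/PRF/5, an established human hepatocellular carcinoma line, harvested 48 h after transfection. One group of 3 libraries received siRNAs against the splicing factor SLU7 (siSlu7), and the other group of 3 received siGL2, an irrelevant control siRNA. All 6 libraries come from one cell line and one time point, and the labels do not say whether the libraries of a group are separate cultures, so p-values measure the spread between these libraries. The comparison asks how lowering SLU7, a protein of the second step of splicing, changes the RNA of the proteins that act before and beside it.

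In splicing, U4 snRNA holds U6 snRNA inactive within the tri-snRNP until the helicase SNRNP200 unwinds the pair. U6 then folds with U2 into the catalytic centre, which PRPF8 cradles and the NTC holds in shape. SLU7 acts later, after the first cut, when the 3' splice site is chosen.

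The libraries held 5191452 to 6315740 estimated counts with siSlu7 and 7736584 to 8693977 with siGL2. Mitochondrial ribosomal RNA took 29.9 to 35.3% of counts with siSlu7 and 16.8 to 24.1% with siGL2, and 7SL RNA took 8.09 to 10.6% with siSlu7 and 15.8 to 23.5% with siGL2. Without structural RNA and mitochondrial genes in the fit, 6 of the 39 genes described here passed the edgeR test, the same 6 as with them, with a median log2 fold change of 0.41, and 2627 genes passed in all. All 12 hepatocyte markers were above the low-count filter, against 1 of 6 fibroblast, 1 of 4 endothelial and 4 of 6 leukocyte markers. Of the 12, TTR was higher (log2 fold change 1.54, edgeR adjusted p = 0.0243), on 9 to 28 counts a library, and none was lower. Every siSlu7 library lay below every siGL2 library in 3, APOB, TF and HNF4A (18.8% of all genes). In 2, ALB and TTR, every siSlu7 library lay above (17.8% of all genes). Among the leukocyte genes 1 of the 4 tested, PTPRC, was higher, on 12, 11 and 8 counts in siSlu7 libraries and 3, 3 and 4 in siGL2 libraries. It stood at 1.79 ± 0.271 CPM with siSlu7 and 0.43 ± 0.0714 CPM with siGL2 (CPM, counts relative to the TMM-scaled library size; SD, n = 3 each). The other 3 did not pass, with log2 fold changes of -0.18 for CD68, -0.33 for LYZ and 0.05 for CSF1R. CD3E, below the filter, had no count in any siSlu7 library. The 4 tested genes summed to 49.1 to 56.4 CPM with siSlu7 and 50.99 to 67.7 CPM with siGL2, and their part in the results was not tested. All libraries are bulk RNA of 1 cell line, and a change in every cell and one in part of the cells cannot be told apart. SLU7 itself (ENSG00000164609.10, chromosome 5, 160401641 to 160421711, minus strand, GRCh38) had 9.38, 8.29 and 10.5 CPM in siSlu7 libraries, against 20.9, 17.1 and 18.4 CPM in siGL2 libraries. Every siSlu7 library lay below every siGL2 library, and SLU7 fell by 1.002 on the log2 scale (SE 0.18, edgeR adjusted p = 0.0139). In the authors' TPM values, which divide by transcript length, SLU7 had 4.12, 4.34 and 4.67 TPM with siSlu7 and 4.69, 3.46 and 5.96 TPM with siGL2, and there the groups overlapped. With offsets for transcript length the fold change was -0.64 (adjusted p = 0.116), and without siSlu7 replicate 1 or 2 the adjusted p was 0.0556 or 0.0805.

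Within each group 1 library stood apart for these genes. siGL2 replicate 1 was above both other controls in 34 of the 39, beside 40.3% of all genes tested. siSlu7 replicate 3 was above both other siSlu7 libraries in 28 of the 39, beside 40.3% of all genes. Across the 39 genes the excess of siGL2 replicate 1 and that of siSlu7 replicate 3 correlated with r = 0.75, and across all 17109 genes with r = 0.44. These points share their libraries and are given as a description. Both excesses were large for LSM2, LSM3, LSM5, SNRNP27, SYF2 and SNW1. Neither excess ran closely with transcript length (r = -0.24 and -0.32 across the 39).

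**Figure D1:**
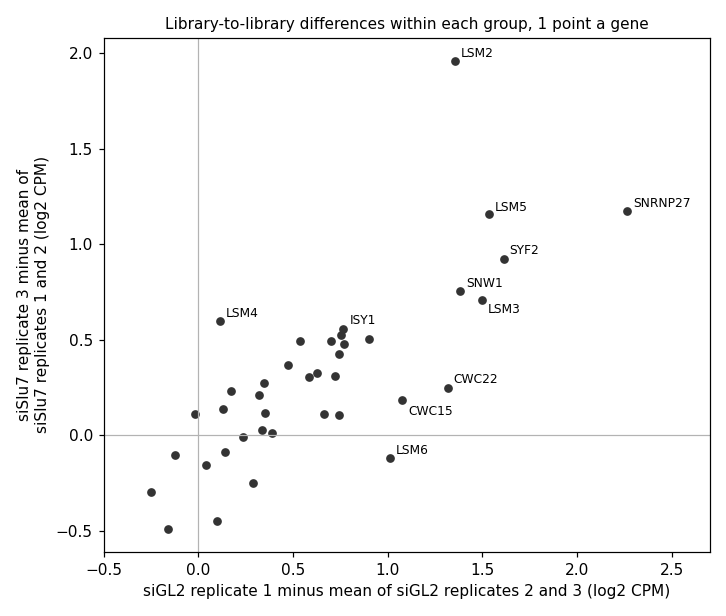
For each of the 39 genes, log2 CPM of siSlu7 replicate 3 minus the mean of the other siSlu7 libraries (vertical) against log2 CPM of siGL2 replicate 1 minus the mean of the other siGL2 libraries (horizontal). Most points lie above 0 on both axes (34 and 28 of 39 above both other libraries of their group), and LSM2, LSM5, SNRNP27 and SYF2 lie farthest out.

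Of the 39 genes, all of which were above the low-count filter, 6 rose past the test in siSlu7 cells and none fell. The 6 were PRPF3, PRPF4 and SART3, which build or belong to the U4/U6 particle, and PPIE, BUD31 and RBM22, which sit in the activated spliceosome. Over all 17109 genes tested, 13.9% were called, 5.93% as higher and 7.93% as lower (edgeR quasi-likelihood test, Benjamini-Hochberg adjusted p under 0.05), against 15.4% of the 39 as higher. At an unadjusted p under 0.05, 14 of the 39 were higher and 1, PRPF8, was lower, which is 38.5% in either direction, beside 32.0% of all genes. DESeq2 called 8 as higher and 0 as lower, beside 6.08% of all genes as higher and 8.72% as lower. The log2 fold change was above 0 for 33 of the 39 and below 0 for 6, with a median of 0.41 and a range of -0.41 to 1.53, beside a median of -0.01 over all genes tested. In 15 of the 39 every siSlu7 library lay above every siGL2 library, which held for 17.8% of all genes. In 1, PRPF8, every siSlu7 library lay below, which held for 18.8% of all genes. Without siSlu7 replicate 2 no gene in the data set and none of the 39 passed the edgeR test (4244 genes and 9 of the 39 at an unadjusted p under 0.05). The log2 fold changes there were 1.49 for PRPF3, 1.51 for PRPF4 and 0.97 for SART3, and the median of the 39 was 0.48. The medians by role were 0.89 for the 7 LSm ring proteins, 0.95 for the 5 U4/U6 proteins and 0.05 for the 6 U5 proteins. They were 0.47 for the 4 other tri-snRNP and B-complex proteins, 0.37 for the 7 NTC proteins, 0.41 for the 4 intron-binding complex proteins and 0.87 for the 6 NTC-related proteins.

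**Figure D2:**
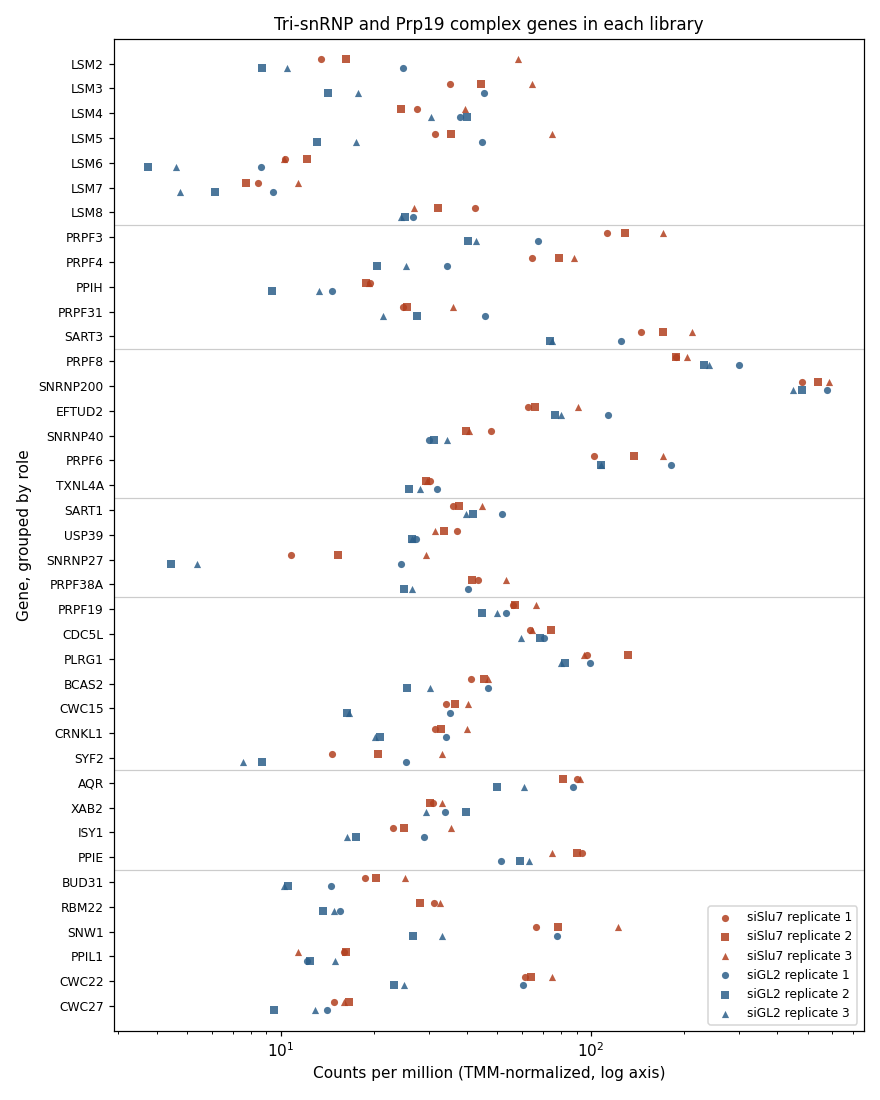
Level of each of the 39 genes in each library, in CPM on a log axis, with siSlu7 libraries in red, siGL2 libraries in blue, a marker shape for each replicate and genes grouped by role. The siSlu7 points of PRPF3, PRPF4 and RBM22 lie clear to the right of their siGL2 points, whereas those of the U5 proteins mostly mingle with them.

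The U4/U6 proteins held 3 of the 6 rises. PRPF3 (chromosome 1, 150321476 to 150353195, plus strand), which binds the U4/U6 duplex, had 113, 129 and 170.4 CPM in siSlu7 libraries, against 67.7, 40.3 and 42.8 CPM in siGL2 libraries. It averaged 138 ± 29.6 CPM with siSlu7 and 50.3 ± 15.2 CPM with siGL2 (SD, n = 3 each). All 3 siSlu7 libraries lay above all 3 siGL2 libraries, with a log2 fold change of 1.45 (SE 0.24, edgeR adjusted p = 0.0109). PRPF4 (chromosome 9, 113275343 to 113292905, plus strand), its binding partner, had 64.4, 79.1 and 88.4 CPM in siSlu7 libraries, against 34.4, 20.5 and 25.4 CPM in siGL2 libraries. The groups did not overlap here either, and PRPF4 had a log2 fold change of 1.53 (SE 0.22, edgeR adjusted p = 0.00923), a value above that of 98.9% of all genes tested. Exons of PRPF4 overlap those of CDC26 on the opposite strand, and without a stated strand setting the reads of the pair cannot be told apart. SART3 (chromosome 12, 108522580 to 108561400, minus strand), which anneals U4 with U6 when the particle is recycled, had 146, 171 and 212 CPM in siSlu7 libraries, against 125, 73.9 and 75.3 CPM in siGL2 libraries. Its lowest siSlu7 library stood above its highest siGL2 library, replicate 1, which was itself well above the other controls. SART3 had a log2 fold change of 0.95 (SE 0.24, edgeR adjusted p = 0.03601), and with length offsets the fold change was 0.73 (adjusted p = 0.172). Its exons overlap those of FICD on the opposite strand.

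The other U4/U6 proteins did not pass the test. PPIH, the cyclophilin that binds PRPF4, had 19.4, 18.8 and 19.2 CPM in siSlu7 libraries, against 14.7, 9.38 and 13.3 CPM in siGL2 libraries. Every siSlu7 library was above every siGL2 library, with a log2 fold change of 0.62 (SE 0.20, edgeR adjusted p = 0.0708). A pair of numbered PPIH pseudogenes held 161 counts over the 6 libraries beside 622 of PPIH and reads may have been split between them. PRPF31, which grips the U4 stem loop, had 24.8, 25.6 and 35.9 CPM in siSlu7 libraries, against 45.6, 27.5 and 21.5 CPM in siGL2 libraries. Its groups overlapped, with a log2 fold change of -0.13 (SE 0.28, edgeR adjusted p = 0.778), and the sign turned with length offsets (0.09), with limma on log2(TPM + 1) (0.64) and without siGL2 replicate 1 (0.23).

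The LSm ring binds the 3' end of U6 snRNA and helps it pair with U4. Of its 7 subunits none passed the edgeR test and 1 had an unadjusted p under 0.05, while 6 had a log2 fold change above 0. LSM6 had 10.3, 12.2 and 10.3 CPM in siSlu7 libraries, against 8.67, 3.75 and 4.6 CPM in siGL2 libraries. Its lowest siSlu7 library stood above its highest siGL2 library, with a log2 fold change of 0.94 (SE 0.31, edgeR adjusted p = 0.0769). LSM8, the subunit that marks the nuclear ring, had 42.5, 32.1 and 26.9 CPM in siSlu7 libraries, against 26.6, 25.2 and 24.5 CPM in siGL2 libraries. Here too the groups did not overlap, though siSlu7 replicate 3 and siGL2 replicate 1 lay side by side, with a log2 fold change of 0.41 (SE 0.19, edgeR adjusted p = 0.171), and the sign turned with length offsets (-0.22).

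In LSM2, LSM5 and LSM3, 1 library of a group stood far from the others. LSM2 had 13.5, 16.2 and 58.5 CPM in siSlu7 libraries, against 24.9, 8.71 and 10.5 CPM in siGL2 libraries. siSlu7 replicate 3 was far above the rest, siGL2 replicate 1 was second, and LSM2 had a log2 fold change of 0.99 (SE 0.58, edgeR adjusted p = 0.279). That fold change was 0.012 without siSlu7 replicate 3 and 1.602 without siGL2 replicate 1, with adjusted p = 0.989 and 0.0682 by edgeR. LSM5 had 31.4, 35.4 and 74.7 CPM in siSlu7 libraries, against 44.5, 13.1 and 17.5 CPM in siGL2 libraries, with the same libraries at the top of each group and a log2 fold change of 0.91 (SE 0.47, edgeR adjusted p = 0.222). LSM3 had 35.1, 44.2 and 64.6 CPM in siSlu7 libraries, against 45.4, 14.2 and 17.8 CPM in siGL2 libraries. Its siGL2 replicate 1 reached the siSlu7 range while the other controls lay far below, and LSM3 had a log2 fold change of 0.89 (SE 0.42, edgeR adjusted p = 0.176). LSM7 had 8.46, 7.74 and 11.4 CPM in siSlu7 libraries, against 9.42, 6.16 and 4.73 CPM in siGL2 libraries, overlapping groups and a log2 fold change of 0.44 (edgeR adjusted p = 0.341). LSM4 had 27.5, 24.5 and 39.4 CPM in siSlu7 libraries, against 37.8, 39.9 and 30.5 CPM in siGL2 libraries. It was the ring subunit with a fold change below 0, -0.24 (edgeR adjusted p = 0.458), and the sign turned with limma on log2(TPM + 1) (0.32).

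None of the 6 U5 proteins passed the edgeR test, 2 had an unadjusted p under 0.05, and their log2 fold changes lay between -0.41 and 0.41. PRPF8 (chromosome 17, 1650629 to 1684882, minus strand), the scaffold of the catalytic centre, had 188, 188 and 204 CPM in siSlu7 libraries, against 301, 231 and 240.4 CPM in siGL2 libraries. It was the gene whose siSlu7 libraries all lay below its siGL2 libraries, with a log2 fold change of -0.41 (SE 0.17, edgeR adjusted p = 0.126), but the sign turned with length offsets (0.20) and with limma on log2(TPM + 1) (0.88). SNRNP200 (chromosome 2, 96274336 to 96305515, minus strand), the helicase that unwinds U4/U6, had 479, 538 and 588 CPM in siSlu7 libraries, against 579, 479 and 449.6 CPM in siGL2 libraries. The groups overlapped throughout, with a log2 fold change of 0.09 (SE 0.18, edgeR adjusted p = 0.765). SNRNP40, a WD40 repeat protein of U5, had 47.5, 39.6 and 40.4 CPM in siSlu7 libraries, against 30.2, 31.2 and 34.5 CPM in siGL2 libraries. Its groups did not overlap, with a log2 fold change of 0.41 (SE 0.15, edgeR adjusted p = 0.0967). EFTUD2, the U5 GTPase, PRPF6, which bridges U5 and U4/U6, and TXNL4A, a thioredoxin-fold protein bound to PRPF8, had log2 fold changes of -0.30, 0.05 and 0.06 with overlapping groups. Of these, EFTUD2 turned sign with limma on log2(TPM + 1) (0.32), and TXNL4A (-0.21) and PRPF6 (-0.01) with length offsets.

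Among the other tri-snRNP and B-complex proteins none of 4 passed the edgeR test, and 2 had an unadjusted p under 0.05. PRPF38A, a B-complex protein, had 43.4, 41.5 and 53.2 CPM in siSlu7 libraries, against 40.1, 25.05 and 26.6 CPM in siGL2 libraries. Each siSlu7 library was above each siGL2 library by a small margin over siGL2 replicate 1, with a log2 fold change of 0.59 (SE 0.21, edgeR adjusted p = 0.0935). USP39, a tri-snRNP protein related to ubiquitin proteases, had 36.9, 33.5 and 31.6 CPM in siSlu7 libraries, against 27.3, 26.5 and 26.5 CPM in siGL2 libraries. Its groups did not overlap, with a log2 fold change of 0.35 (SE 0.14, edgeR adjusted p = 0.135). SNRNP27, a small tri-snRNP protein, had 10.8, 15.3 and 29.3 CPM in siSlu7 libraries, against 24.5, 4.42 and 5.37 CPM in siGL2 libraries. Its siGL2 replicate 1 stood with the upper siSlu7 libraries and several times above the other controls, with a log2 fold change of 0.68 (SE 0.62, edgeR adjusted p = 0.492). It was 1.90 without siGL2 replicate 1, which passed the edgeR test (adjusted p = 0.0111), and 0.18 without siSlu7 replicate 3 (adjusted p = 0.899). SART1, which helps to bring the tri-snRNP in, had overlapping groups and a log2 fold change of -0.18, which turned to 0.19 with length offsets and to 0.68 with limma on log2(TPM + 1).

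No NTC protein passed the edgeR test and 1 had an unadjusted p under 0.05, while all 7 had log2 fold changes above 0, from 0.03 to 0.71. PRPF19, the ubiquitin ligase that names the complex, had 56.3, 57.1 and 66.7 CPM in siSlu7 libraries, against 53.1, 44.6 and 49.8 CPM in siGL2 libraries. All siSlu7 libraries lay above all siGL2 libraries, with a log2 fold change of 0.29 (SE 0.15, edgeR adjusted p = 0.213). CWC15, a small core protein, had 34.1, 36.5 and 40.2 CPM in siSlu7 libraries, against 35.1, 16.3 and 16.6 CPM in siGL2 libraries. Its siGL2 replicate 1 fell among the siSlu7 libraries and the other controls were far lower, with a log2 fold change of 0.70 (SE 0.29, edgeR adjusted p = 0.134). SYF2, another small protein of the complex, had 14.6, 20.6 and 33.3 CPM in siSlu7 libraries, against 25.4, 8.71 and 7.54 CPM in siGL2 libraries, again with siGL2 replicate 1 among the siSlu7 libraries and a log2 fold change of 0.71 (SE 0.47, edgeR adjusted p = 0.334). BCAS2, a coiled-coil protein of the core, had 41.2, 45.2 and 46.5 CPM in siSlu7 libraries, against 46.7, 25.6 and 30.3 CPM in siGL2 libraries. The highest library of both groups was siGL2 replicate 1, with a log2 fold change of 0.37 (SE 0.22, edgeR adjusted p = 0.286). The WD40 protein PLRG1, the scaffold CRNKL1 and the Myb-domain protein CDC5L had overlapping groups and log2 fold changes of 0.30, 0.47 and 0.03. For CDC5L the sign turned to -0.03 with length offsets and was negative without siSlu7 replicate 2 or siGL2 replicate 3.

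In the intron-binding complex, which clasps the intron near the branch point, 1 of 4 proteins rose. PPIE (chromosome 1, 39692182 to 39763914, plus strand), its cyclophilin, had 93.8, 90.3 and 74.7 CPM in siSlu7 libraries, against 51.3, 58.9 and 63.1 CPM in siGL2 libraries. The lowest siSlu7 library, replicate 3, stood above the highest siGL2 library, also replicate 3, and PPIE had a log2 fold change of 0.58 (SE 0.16, edgeR adjusted p = 0.0411). The call was lost with length offsets (log2 fold change 0.72, adjusted p = 0.0544), with no low-count filter (0.55, adjusted p = 0.0666) and without any single library other than siGL2 replicate 1. Exons of PPIE overlap those of BMP8B on the opposite strand. AQR, the helicase of the complex, had 89.98, 81.1 and 92.3 CPM in siSlu7 libraries, against 87.7, 49.96 and 61.1 CPM in siGL2 libraries. siGL2 replicate 1 lay within the siSlu7 range, with a log2 fold change of 0.41 (SE 0.21, edgeR adjusted p = 0.216). ISY1 and the scaffold XAB2 had log2 fold changes of 0.41 and -0.12 with overlapping groups, and XAB2 turned to 0.32 with limma on log2(TPM + 1).

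Of the 6 NTC-related proteins, RBM22 and BUD31 rose. RBM22 (chromosome 5, 150690794 to 150701107, minus strand), which contacts U6 snRNA near the active site, had 31.2, 28.2 and 32.7 CPM in siSlu7 libraries, against 15.6, 13.7 and 14.8 CPM in siGL2 libraries. It averaged 30.7 ± 2.29 CPM with siSlu7 and 14.7 ± 0.966 CPM with siGL2 (SD, n = 3 each). The lowest siSlu7 library was far above the highest siGL2 library, with a log2 fold change of 1.06 (SE 0.15, edgeR adjusted p = 0.00942). Its 9 numbered pseudogenes held 105 counts over the 6 libraries beside 873 of RBM22. BUD31 (chromosome 7, 99408641 to 99419616, plus strand), another protein of the activated spliceosome, had 18.8, 20.3 and 25.2 CPM in siSlu7 libraries, against 14.6, 10.6 and 10.2 CPM in siGL2 libraries. Its groups did not overlap, with a log2 fold change of 0.86 (SE 0.21, edgeR adjusted p = 0.0302), and its exons overlap those of PDAP1 and PTCD1 on the opposite strand. The calls for BUD31 and SART3 were lost without any single library other than siGL2 replicate 1. Of the single libraries, leaving out siSlu7 replicate 2 ended the calls for PRPF4 and RBM22 (adjusted p = 0.0662 and 0.0658) and no other did, and that for PRPF3 was lost without siSlu7 replicate 2 or siGL2 replicate 2 (adjusted p = 0.0685 and 0.0504).

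The other 4 NTC-related proteins did not pass. SNW1, an extended scaffold protein of the catalytic core, had 66.8, 78.3 and 122 CPM in siSlu7 libraries, against 78.02, 26.7 and 33.1 CPM in siGL2 libraries. siGL2 replicate 1 lay within the siSlu7 range and siSlu7 replicate 3 above all, with a log2 fold change of 0.95 (SE 0.39, edgeR adjusted p = 0.135). CWC22, which brings in the exon junction helicase EIF4A3, had 61.4, 64.3 and 74.7 CPM in siSlu7 libraries, against 60.3, 23.2 and 24.9 CPM in siGL2 libraries. Every siSlu7 library was above every siGL2 library, but siGL2 replicate 1 came within reach of the lowest, with a log2 fold change of 0.88 (SE 0.34, edgeR adjusted p = 0.111). DESeq2 called both SNW1 (adjusted p = 0.0487) and CWC22 (adjusted p = 0.0438). CWC27, a cyclophilin that binds CWC22, had 14.9, 16.6 and 16.1 CPM in siSlu7 libraries, against 14.1, 9.51 and 12.9 CPM in siGL2 libraries. Its siSlu7 libraries were all above its siGL2 libraries, by a small margin, with a log2 fold change of 0.38 (SE 0.20, edgeR adjusted p = 0.219). PPIL1, another cyclophilin, had overlapping groups and a log2 fold change of 0.14.

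On the per-length TPM scale SART3 and PLRG1 had the highest mean levels of the 39 genes with siSlu7, and PLRG1 and EFTUD2 with siGL2. SART3 averaged 112 ± 32.2 TPM with siSlu7 and 46.4 ± 21.5 TPM with siGL2, and PLRG1 106 ± 17.7 TPM with siSlu7 and 56.4 ± 16.3 TPM with siGL2 (SD, n = 3 each). EFTUD2 averaged 65.6 ± 16.7 TPM with siSlu7 and 54.9 ± 24.7 TPM with siGL2, a difference within the SD. At the low end, CRNKL1 averaged 5.65 ± 0.951 TPM with siSlu7 and 3.21 ± 1.22 TPM with siGL2, and CWC27 8.08 ± 2.26 TPM with siSlu7 and 3.08 ± 0.587 TPM with siGL2. The scale itself moved, since the median of all genes tested shifted by 0.35 on log2(TPM + 1) and 95.2% of calls were then higher. On that scale 16 of the 39 passed the test as higher, beside 17.4% of all genes, and their median was 0.97.

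Promoters are shown for the genes past the test that had one among the RefSeq sequences used, PRPF4, BUD31 and RBM22, because these rose together. Each is the 250 bases before the RefSeq transcription start (GRCh38.p14), 5' to 3' on the gene's strand. By the GENCODE gene coordinates given above, the PRPF4 and BUD31 windows lie inside the gene and the RBM22 window overlaps its first bases. Capitals mark CCGGAAG or its reverse complement CTTCCGG, an extended form of the site bound by the ETS family of transcription factors, searched on both strands. Other forms of the site were not searched.
PRPF4, chr9:113275408-113275657, plus strand: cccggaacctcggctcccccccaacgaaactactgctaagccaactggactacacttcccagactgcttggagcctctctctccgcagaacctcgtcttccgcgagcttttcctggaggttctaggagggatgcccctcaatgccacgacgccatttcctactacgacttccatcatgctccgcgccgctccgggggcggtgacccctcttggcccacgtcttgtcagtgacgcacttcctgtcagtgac
BUD31, chr7:99408719-99408968, plus strand: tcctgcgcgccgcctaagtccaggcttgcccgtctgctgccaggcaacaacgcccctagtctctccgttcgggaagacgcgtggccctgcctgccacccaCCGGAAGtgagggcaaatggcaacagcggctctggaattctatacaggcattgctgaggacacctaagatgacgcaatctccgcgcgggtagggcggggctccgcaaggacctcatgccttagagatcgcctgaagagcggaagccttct
RBM22, chr5:150701063-150701312, minus strand: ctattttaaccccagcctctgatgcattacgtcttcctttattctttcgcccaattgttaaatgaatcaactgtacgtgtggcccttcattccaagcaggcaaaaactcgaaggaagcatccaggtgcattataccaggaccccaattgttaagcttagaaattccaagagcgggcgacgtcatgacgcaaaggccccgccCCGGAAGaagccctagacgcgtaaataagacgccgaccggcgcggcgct
BUD31 and RBM22 each hold 1 match to these exact letters and PRPF4 holds none, which does not speak to other forms of the site. Of the 35 genes with a RefSeq promoter, 17 hold the motif in at least 1 listed promoter, a share of 48.6%, against 10.2% of all 27305 genes listed. The 27305 were not limited to coding genes or to genes expressed in these cells, whereas the 35 were all above the low-count filter. The shares are therefore not matched, and whether the motif is particular to these genes was not tested. A match describes the letters in the window and was not tested as a binding site. The 35 do not include PRPF3, SART3, PPIE and LSM6.

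Without siGL2 replicate 1 and siSlu7 replicate 3, which leaves 2 libraries a group, 24 of the 39 genes passed the test as higher and none as lower. That is 61.5% of them, beside 14.1% of all 17583 genes then tested as higher and 29.8% called in either direction. siGL2 replicate 1 was singled out for standing above both other controls in 34 of these genes, so leaving it out lowers their control level by construction, and nothing is read from the difference between these shares. The 24 were 5 of the 7 LSm proteins, 4 of the 5 U4/U6 proteins, 0 of the 6 U5 proteins and 3 of the 4 other tri-snRNP and B-complex proteins. They also held 5 of the 7 NTC proteins, 3 of the 4 intron-binding proteins and 4 of the 6 NTC-related proteins. CWC22 then had a log2 fold change of 1.39, LSM6 1.42, SNRNP27 1.40, LSM3 1.31 and SNW1 1.28. LSM2 had 0.63 there, against 0.99 with all libraries. The 6 genes called with all libraries were among the 24. Without siGL2 replicate 1 alone, 20 of the 39 passed, beside 11.7% of all genes as higher.

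**Figure D3:**
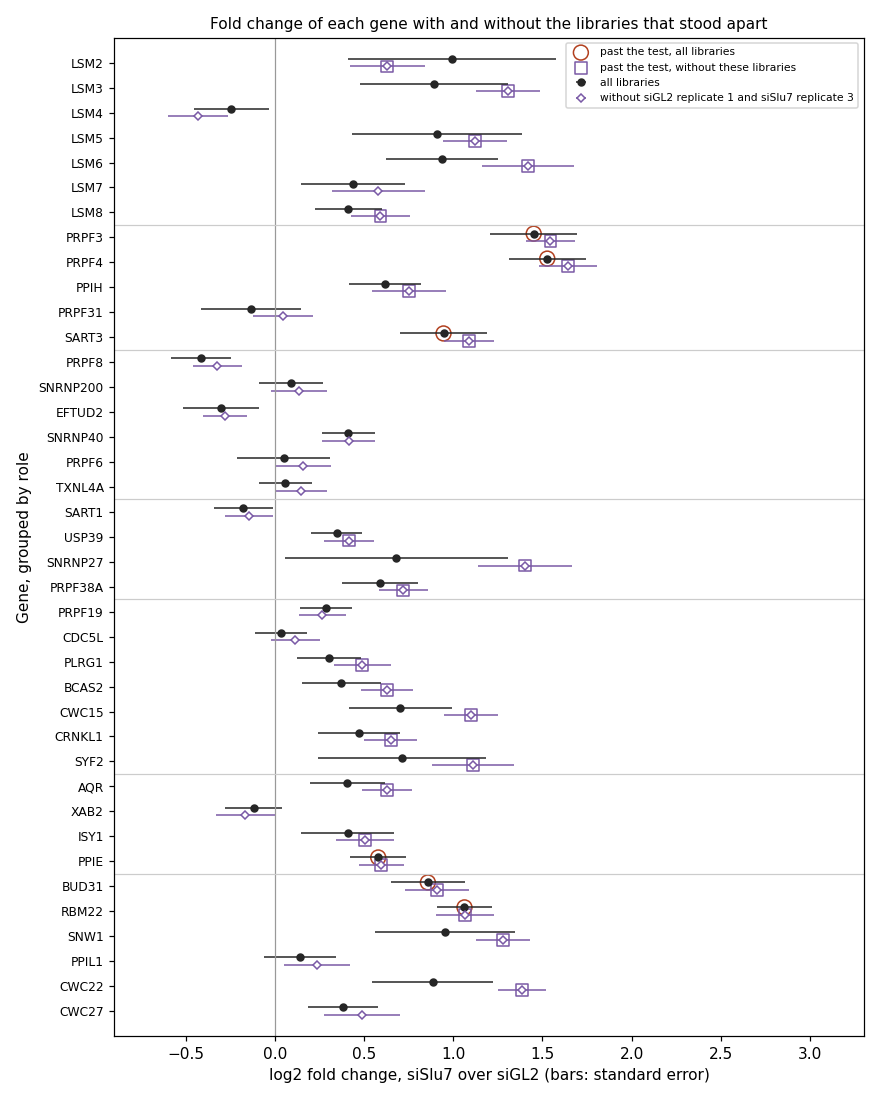
Log2 fold change of siSlu7 over siGL2 for each of the 39 genes by role, from all 6 libraries (filled circles) and without siGL2 replicate 1 and siSlu7 replicate 3 (open diamonds), with standard errors as bars and genes past the test ringed or boxed. With all libraries 6 genes are ringed, and without both libraries 24 are boxed, none of them a U5 protein.

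The 39 genes have 311 annotated transcripts, of which 138 were above the low-count filter. The 311 comprise 132 protein-coding, 88 retained-intron, 53 processed and 38 nonsense-mediated decay transcripts. A retained-intron transcript keeps part or all of an intron that others splice out, and a decay transcript carries an early stop that marks it for degradation. No transcript passed the edgeR test, of these 138 or of all 43128 (0% called), although 29 of the 138 and 6956 of all had an unadjusted p under 0.05. Of those 29, 26 were higher with siSlu7 and 3 lower. DESeq2 called 2812 of all transcripts and 13 of the 138, 11 higher and 2 lower. The median log2 fold change was 0.95 over the 35 retained-intron transcripts tested, beside 0.35 over all 7692 of that type. It was 0.85 over the 19 processed transcripts, beside 0.11 over all 4288, and 0.37 over the 13 decay transcripts, beside 0.098 over all 3628. It was 0.14 over the 71 protein-coding transcripts, beside -0.20 over all 22777. The median was thus above that of all transcripts in each of these types, not in the retained-intron type alone.

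A few transcripts, chosen after their values were seen, show where the differences lay. SNRNP200-203, a retained-intron transcript of the helicase gene, had 30.8, 39.9 and 32.6 CPM in siSlu7 libraries, against 9.13, 7.46 and 9.56 CPM in siGL2 libraries. Its siSlu7 libraries were all several times above its siGL2 libraries, with a log2 fold change of 1.98 (SE 0.24, edgeR adjusted p = 0.0994), while the gene as a whole had a log2 fold change of 0.09. PRPF8-201, the main coding transcript of PRPF8, had 130.1, 134 and 121 CPM in siSlu7 libraries, against 254, 234 and 232 CPM in siGL2 libraries, and PRPF8-214, a retained-intron transcript, had 9.13, 8.36 and 6.88 CPM in siSlu7 libraries, against 1.68, 2.36 and 1.83 CPM in siGL2 libraries. The groups did not overlap in either, with the coding transcript lower (-0.90) and the retained-intron transcript higher (2.05) on the log2 scale, both short of the edgeR threshold (adjusted p = 0.108 and 0.102). CWC22-201, 1 of the protein-coding transcripts of CWC22, had 39.1, 46.99 and 48.4 CPM in siSlu7 libraries, against 13.1, 8.73 and 6.59 CPM in siGL2 libraries. That is a clear separation, with a log2 fold change of 2.24 (SE 0.32, edgeR adjusted p = 0.0994), and DESeq2 called it higher. CWC22-202, the coding transcript with the most counts of that gene, had 22.02, 16.7 and 25.6 CPM in siSlu7 libraries, against 51.2, 16.5 and 20.1 CPM in siGL2 libraries and overlapping groups.

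The ends of the introns kept in SNRNP200-203 and PRPF8-214 are shown because SLU7 works at this junction. Each line gives the last 50 bases of the intron and the first 10 of the next exon (GRCh38, minus strand, 5' to 3'), with the AG of the 3' splice site in capitals.
SNRNP200 intron of 1278 bases, chr2:96281913-96281972: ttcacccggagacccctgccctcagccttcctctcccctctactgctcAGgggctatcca
SNRNP200 intron of 353 bases, chr2:96283995-96284054: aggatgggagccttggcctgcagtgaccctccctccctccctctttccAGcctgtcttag
SNRNP200 intron of 594 bases, chr2:96284576-96284635: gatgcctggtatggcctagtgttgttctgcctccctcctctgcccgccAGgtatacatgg
PRPF8 intron of 1333 bases, chr17:1654007-1654066: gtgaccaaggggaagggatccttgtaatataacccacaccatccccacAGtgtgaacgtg
The first and second SNRNP200 introns are contained whole in SNRNP200-203, and the third SNRNP200 intron and the PRPF8 intron in part. The nearest AG upstream of the splice site lay 25, 27 and 31 bases away in SNRNP200 and 35 bases away in PRPF8. C or T filled 90, 100 and 85% of the 20 bases before the AG in SNRNP200 and 65% in PRPF8. These letters describe the junctions and were not compared with other introns.

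Single libraries also stood out among the transcripts. LSM2-214, a processed transcript without an annotated reading frame, had 12.8, 15.6 and 56 CPM in siSlu7 libraries, against 24.9, 5.09 and 8.297 CPM in siGL2 libraries, most of the LSM2 level in each group. SNRNP27-203, a decay transcript, had 9.86, 14.8 and 29.05 CPM in siSlu7 libraries, against 26.1, 3.66 and 4.91 CPM in siGL2 libraries, and LSM5-201, also a decay transcript, had 18.7, 15.8 and 48.6 CPM in siSlu7 libraries, against 27.1, 2.47 and 3.196 CPM in siGL2 libraries. In all 3 the siGL2 replicate 1 value stood above most siSlu7 values while the other controls lay far below. PRPF8-202, a short retained-intron transcript, had 4.65, 9.21 and 15.2 CPM in siSlu7 libraries, against 49.02, 1.86 and 2.02 CPM in siGL2 libraries, the highest value being that of siGL2 replicate 1. SNW1-202, another short retained-intron transcript, had 27.6, 28.9 and 77.1 CPM in siSlu7 libraries, against 55.1, 9.54 and 12.2 CPM in siGL2 libraries, whereas SNW1-201, the coding transcript with the most counts, had 30.8, 38.03 and 36.3 CPM in siSlu7 libraries, against 12.9, 12.1 and 17.03 CPM in siGL2 libraries. SNW1-201 thus separated the groups, with a log2 fold change of 1.32 (SE 0.24, edgeR adjusted p = 0.108), and the short one did not.

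Of the estimated counts summed over the 39 genes, protein-coding transcripts held 71.3, 71.5 and 67.4% in siSlu7 libraries, against 74.2, 80.5 and 79.97% in siGL2 libraries. Every siSlu7 library was below every siGL2 library, and the difference of means was -8.14 percentage points, beside -4.74 over all genes with a coding transcript. Retained-intron transcripts held 15.4, 14.7 and 14.9% in siSlu7 libraries, against 14.1, 10.4 and 10.1% in siGL2 libraries. siGL2 replicate 1 was close to the siSlu7 libraries, and the difference of 3.47 points was near the 3.38 points over all genes with a coding transcript. The median of the genes' own retained-intron shares differed by -0.11 points, opposite in sign to the sum. Only 24 of the 39 genes had counts in this class, so that median lay low, at 1.82% with siSlu7 and 1.93% with siGL2. It can show little of a change in the genes with higher shares. Decay transcripts held 6.43, 6.84 and 8.82% in siSlu7 libraries, against 6.52, 4.57 and 5.06% in siGL2 libraries, with overlapping groups. No p-value is given for these sums.

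Gene by gene, the protein-coding share lay lower in every siSlu7 library in 8 of the 39 genes (20.5%), beside 14.9% of 12560 genes, and higher in 3 (7.69%), beside 3.12%. The retained-intron share lay higher in every siSlu7 library in 5 (12.8%), namely SNRNP200, PRPF19, CWC15, LSM7 and PPIE, beside 12.5% of genes, and lower in 1, CRNKL1 (2.56%), beside 1.62%. The retained-intron count is thus near the background. The decay share lay higher in 1 (LSM6), beside 3.71% of genes, and lower in 1 (TXNL4A), beside 2.33%. The test of class usage within a gene, which compares the split of a gene's counts between transcript types, called none of the 26 genes with enough counts, beside 2.41% of 6838 genes (edgeR diffSpliceDGE, Simes adjusted p under 0.05), and 2 of the 26 had an unadjusted p under 0.05 (7.69%, beside 13.3% of the 6838).

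The coding share of PRPF3 was 48.98, 37.8 and 28.6% in siSlu7 libraries, against 55.5, 65.1 and 60.6% in siGL2 libraries. It was lower in every siSlu7 library, and processed transcripts made up the rest. That of LSM6 was 22.4, 34.8 and 12.7% in siSlu7 libraries, against 55.1, 64.3 and 67.6% in siGL2 libraries, on as few as 28 counts a library, and its decay share was 61.2, 53.03 and 74.5% in siSlu7 libraries, against 39.1, 17.9 and 18.9% in siGL2 libraries. The groups did not overlap in either class. The retained-intron share of PRPF19 was 25.7, 35.5 and 49.3% in siSlu7 libraries, against 20.1, 18.6 and 20.8% in siGL2 libraries, with siSlu7 replicate 3 the highest and the controls close together (class usage adjusted p = 0.291). The retained-intron share of CWC15 was 67.1, 65.2 and 69.3% in siSlu7 libraries, against 63.4, 35.2 and 33.1% in siGL2 libraries, where siGL2 replicate 1 stood near the siSlu7 libraries. The retained-intron share of SNRNP200 was 18, 16.1 and 12.5% in siSlu7 libraries, against 10.9, 9.73 and 10.1% in siGL2 libraries. Its controls lay close together and every siSlu7 library was higher.

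BCAS2 went the other way. Its coding share was 82.5, 77.6 and 78.7% in siSlu7 libraries, against 48.4, 42.9 and 46.8% in siGL2 libraries, higher in every siSlu7 library and with little spread in either group. The coding transcript BCAS2-201 had 33.8, 34.7 and 36.4 CPM in siSlu7 libraries, against 24.1, 12 and 15.1 CPM in siGL2 libraries, and the processed transcript BCAS2-202 had 7.22, 10.01 and 9.71 CPM in siSlu7 libraries, against 25.7, 15.8 and 17.3 CPM in siGL2 libraries. One was higher and the other lower in every siSlu7 library, and the class usage test of BCAS2 gave an adjusted p of 0.0712. Without siGL2 replicate 1 and siSlu7 replicate 3 that test called BCAS2 (adjusted p = 0.02801), SNRNP200 (0.0375), PRPF8 (0.00136) and LSM2 (0.0141), 4 of the 27 genes then tested (14.8%), beside 6.85% of 7056 genes. LSM2 was not tested for class usage with all libraries. Its coding share was 0% in siSlu7 libraries and siGL2 replicate 1, and 20 and 22% in the other controls, on 31 counts in all. The retained-intron share of PRPF8 was 15.5, 16.7 and 14.2% in siSlu7 libraries, against 16.5, 2.55 and 1.70% in siGL2 libraries. Both genes thus lost the control nearest the siSlu7 libraries, and nothing is read from 14.8% beside 6.85%.

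**Figure D4:**
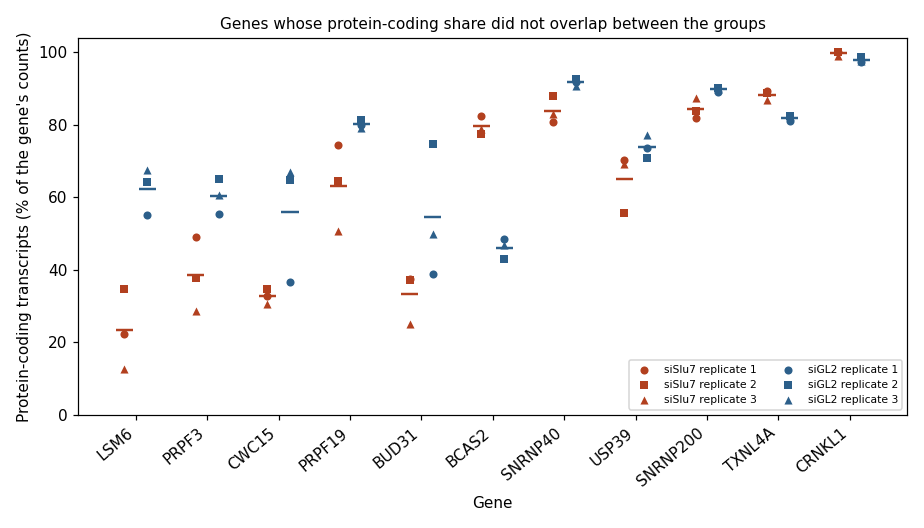
Share of a gene's estimated counts in protein-coding transcripts, in percent, in each siSlu7 (red) and siGL2 (blue) library, with bars at the group means, for the 11 genes whose shares did not overlap between the groups. In 8 genes, among them LSM6 and PRPF3, the siSlu7 points lie below the siGL2 points, and in BCAS2, TXNL4A and CRNKL1 above them.

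A further 57 proteins were listed, of splicing or, for 8 of them, LSm and related proteins outside the U6 ring. Of the 57, 7 rose (12.3%) and 2 fell (3.51%), beside 5.93% of all genes higher and 7.93% lower. Their median log2 fold change was 0.29, beside -0.01 over all genes. With length offsets 1 of these 9, WBP11, passed the edgeR test (adjusted p = 0.0442), and the other 8 had adjusted p = 0.0689 to 0.304. Of 20 proteins listed for the tri-snRNP and B complex, assembly chaperones and deubiquitinases among them, 4 rose and 1 fell. The 15 that did not pass include DDX23, SNU13, SMU1, IK, MFAP1 and PRPF38B. TSSC4, a chaperone of tri-snRNP assembly, had a log2 fold change of 0.88 (adjusted p = 0.0364 by edgeR), TXNL4B, a relative of TXNL4A, 1.05, and USP4, a deubiquitinase that acts on PRPF3, 0.68. RUVBL2, an ATPase of the chaperone complex that assembles snRNPs, had 29.7, 32.99 and 45.2 CPM in siSlu7 libraries, against 78.4, 66.03 and 59.8 CPM in siGL2 libraries. It was lower in every siSlu7 library, with a log2 fold change of -0.92 (SE 0.19, edgeR adjusted p = 0.0204). Of 29 proteins of the activated and catalytic spliceosome, 3 rose and 1 fell, with log2 fold changes of 0.92 for the cyclophilin PPIL3, 0.53 for the WW-domain binding protein WBP11, 0.79 for PRCC and -0.83 for the polyglutamine-binding protein PQBP1. Of the 8 LSm and related proteins outside the U6 ring none passed the edgeR test and 3 had an unadjusted p under 0.05, among them LSM1 of the cytoplasmic ring (0.66, adjusted p = 0.0596) and PATL1, which binds that ring (0.61, adjusted p = 0.0646). NAA38, the third of these, had 5.54, 4.42 and 12.1 CPM in siSlu7 libraries, against 32.04, 12.6 and 12.01 CPM in siGL2 libraries, with overlapping groups and a log2 fold change of -1.37 (SE 0.48, edgeR adjusted p = 0.088).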

How the data were processed

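RNA was measured in 6 libraries of PLC/PRF/5 cells, 3 with siSlu7 and 3 with siGL2. Per the labels' protocols, cells were harvested in TRIzol and polyA RNA was prepared for sequencing with a ScriptSeq kit. FastQC 0.11.8, Trimmomatic 0.38, kallisto 0.46.1, sleuth 0.30.0 and GRCh38 are named in the submitters' processing notes, with no role or order. The authors deposited estimated counts per transcript, not normalized, and TPM, per the file headers, with the transcript lengths. Neither the annotation release nor a strand setting was found, so overlapping genes and near-identical copies are uncertain: 17 of the 39 genes have exons that overlap another gene in GENCODE 29, and 11 have numbered pseudogenes. Estimated counts were summed per gene and rounded. The test of genes and of transcripts used edgeR 4.0.16 under R 4.3.3 (TMM, filterByExpr with a minimum count of 10 and total of 15, quasi-likelihood test of siSlu7 against siGL2 over all 6 libraries, Benjamini-Hochberg adjustment at 0.05 over all features tested), and the split of counts between protein-coding, retained-intron, decay and other transcripts with diffSpliceDGE and the Simes method. CPM were scaled by TMM, and SE is the log2 fold change divided by the root of the F statistic. The scripts were tested on simulated data. Counts of a gene ran from 28 to 4608 a library, which limits the precision of the low ones.

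The alternatives comprised scaling by RLE, no low-count filter, a stricter one (a mean of 1 CPM, with 3 libraries at 10 counts or more), DESeq2 1.42.0, limma 3.58.1 on log2(TPM + 1), length offsets, no structural or mitochondrial genes, the replicate number as a block, and leaving out libraries. Chosen after seeing the data were DESeq2 on transcripts and class shares without siGL2 replicate 1 and siSlu7 replicate 3. The named genes are all 39 and SLU7, member transcripts and class usage past the test (none), and up to 4 genes with the smallest p past the test of each further list (2 if none). The transcripts and class shares described, and NAA38, were chosen after their values were seen. The genes, lists and tests were chosen with earlier results of these data known. Gene coordinates are GENCODE 29 (GRCh38), and promoters RefSeq (GRCh38.p14).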

Additional observations from a re-analysis of the deposited data

How the results depend on the processing

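The 39 genes under 15 alternatives each gave 585 values, of which 484 kept direction and side of the threshold, 51 newly passed, 28 no longer passed and 22 changed sign. Genes called over the whole data set numbered 2371, against 0 with the replicate block, 966 with length offsets, 5248 without siGL2 replicate 1 and siSlu7 replicate 3, and 0 to 4457 leaving out each library. Of the 39, 6 were higher, against 12 with no filter, 0 with the replicate block, 16 with limma on log2(TPM + 1), 24 without both libraries and 0 to 20 leaving out each library, and none was lower under any. The shares of all genes called higher were 5.93%, against 3.15% with no filter, 0% with the replicate block and 17.4% with limma on log2(TPM + 1). They were 14.1% without both libraries and 0 to 11.7% leaving out each library. Shares called lower ran from 0 to 15.7% over these settings. Without siSlu7 replicate 2 all calls were lost, with 4244 genes and 9 of the 39 at an unadjusted p under 0.05. The replicate numbers do not pair the samples by the labels, and same-numbered libraries deviated from their group means with correlations of -0.41, 0.11 and -0.37. SLU7 gave -1.004 with the replicate block (adjusted p = 0.0663), -0.64 with length offsets, -0.063 on log2(TPM + 1) and -1.09 to -0.92 leaving out each library. DESeq2 called 11 member transcripts higher and 2 lower. Class usage was called in 4 genes without both libraries and in 0 to 2 leaving out each library. The retained-intron difference was -0.11 points and the decay difference 0 points as medians of the genes' own shares. Of the 39 genes, 24 had retained-intron counts and 16 had decay counts. The decay median was therefore 0 in every library and could not move, and the retained-intron median lay low. Neither can show whether the summed differences hold. Log2 fold changes of uncalled genes that changed sign were, with limma on log2(TPM + 1), 0.32 (LSM4), 0.64 (PRPF31), 0.88 (PRPF8), 0.32 (EFTUD2), 0.68 (SART1) and 0.32 (XAB2). With length offsets they were -0.22 (LSM8), 0.093 (PRPF31), 0.20 (PRPF8), -0.0097 (PRPF6), -0.21 (TXNL4A), 0.19 (SART1) and -0.030 (CDC5L). Without both libraries PRPF31 gave 0.046. Leaving out libraries, PRPF31 ranged from -0.36 to 0.23, PRPF6 from -0.14 to 0.34, TXNL4A from -0.022 to 0.15, CDC5L from -0.053 to 0.11 and SNRNP200 from -0.0003653 to 0.20. The cause of these changes was not tested, beyond fewer libraries where some were left out. The counts of LSM6, LSM7 and CWC27 limit what their values can show.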
